A study of Rattus norvegicus with 2 samples.

Results

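The genes described here mark microglia and related macrophages, encode the phagocyte NADPH oxidase, or are read as signs of an activation state. They number 41, were listed by name, and were found as every probe set that the array annotation assigned to exactly 1 of them. Of the 41 genes, 39 had such a probe set, out of 14217 genes on the array, and these 39 genes held 56 probe sets. Spi1, which encodes the transcription factor PU.1, and Tgfbr2, a receptor chain for TGF-beta, were assigned none and are not analysed here. RNA came from microglial cells of the Sprague Dawley rat, grown in DMEM with foetal calf serum. Resting cells had no exposure (1 array), and the other group underwent oxygen-glucose deprivation (OGD) for 3 h (1 array). The labels give no age, no number of animals and no statement on pooling, and do not say whether the cells were a primary culture. With 1 array in each group there was no replicate, so every difference below describes a pair of arrays and carries no test and no error between cultures.

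Microglia depend on signals through the CSF1 receptor and on TGF-beta, and their identity is held by transcription factors such as PU.1, IRF8, RUNX1, the MEF2 proteins and SALL1. The NADPH oxidase of phagocytes is a membrane pair, gp91phox (Cybb) and p22phox (Cyba), that makes superoxide once cytosolic subunits such as p47phox (Ncf1) and p40phox (Ncf4) join it. Stimulated or lipid-handling microglia are known for genes such as Spp1, Lgals3, Gpnmb, Lpl, Igf1 and Clec7a, while Arg1 and Clec10a are used as marks of alternative activation. The comparison asked which of these transcripts differed between OGD-exposed and resting cells by the 1.5-fold that the study set as its threshold.

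Values are linear intensities as deposited, 1 per probe set and array. The median of all probe sets other than array controls, 19.6 at rest and 19.7 after OGD, was taken as the floor of measurement. A probe set under it on both arrays is given no fold, and one above it on a single array is given a bound. Each difference is the log2 OGD intensity minus the log2 resting intensity. Of the 56 member probe sets, 37 were above the floor on both arrays, 2 on the resting array alone and 17 on neither. Both intensities are given for each gene, and levels of different genes are not set against each other, since probe sets differ in brightness.

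No member probe set reached 1.5-fold in either direction: the count was 0 of 39 above the floor, where 0.164% of all 12231 such probe sets did. At a lower fold of 1.2, 1 member probe set was higher on the OGD array (Cd37) and 1 was lower (a probe set of Aif1). Over all probe sets 3.89% were higher and 4.21% lower by 1.2-fold, so the members' counts lay near the background. Represented by their brightest probe sets, 31 member genes exceeded the floor on 1 array or both. Of these, 15 were higher and 16 lower on the OGD array, against 42.8% of all 9580 measured genes higher. The median difference was -0.0093 for the member genes and -0.0076 for all measured genes. Only Cd37 passed 1.2-fold among the 31 member genes, where 7.53% of all measured genes did.

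**Figure D1:**
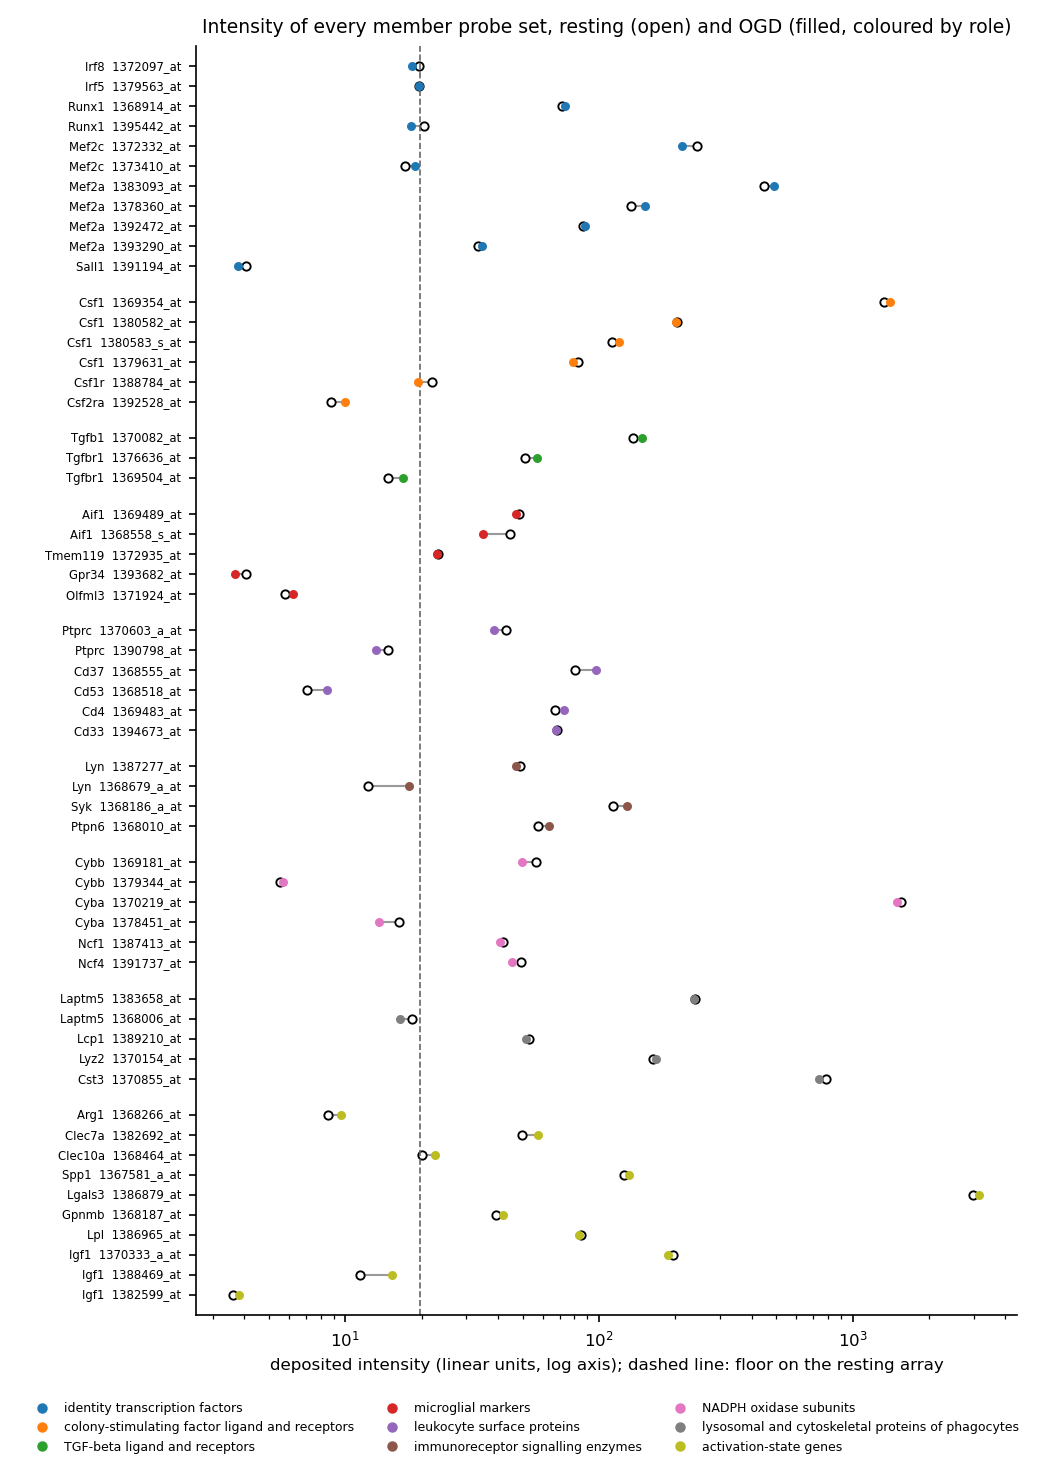
Deposited intensity (log axis) of the 56 member probe sets, grouped by role, on the resting array (open circles) and the OGD array (filled circles), with the resting floor of 19.6 as a dashed line. The pairs of circles lie close together, and 17 probe sets lie to the left of the floor on both arrays.

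The identity transcription factors were measured in 3 of the 6 genes that had a probe set (50%, against 67.4% of all genes). None of the 3 passed 1.2-fold. Mef2a, a MADS-box factor active in microglial and muscle enhancers, had 4 probe sets above the floor. Their intensities were 449.2, 133.7, 86.4 and 33.2 at rest and 491.2, 151.4, 88.1 and 34.7 after OGD. All 4 were higher on the OGD array, with a mean log2 difference of 0.10 ± 0.068 (SD over the 4 probe sets, which measure 1 pair of RNA samples and are not replicates). Mef2c, its relative, went the other way, at 243.4 at rest and 212.9 after OGD, a log2 difference of -0.19, while its second probe set was under the floor on both arrays. Runx1, which encodes a factor needed for haematopoietic and microglial development, had 71.7 at rest and 73.6 after OGD. Its other probe set was above the floor at rest alone, at 20.4 against 18.2, a difference of -0.05 or beyond.

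Irf8, the interferon regulatory factor needed for microglial development, lay just under the floor at 19.56 (floor 19.62) at rest and 18.3 after OGD, and Irf5, its relative linked to inflammatory polarisation, at 19.4 on both arrays, to every digit deposited. Sall1, the zinc finger factor regarded as typical of microglia among macrophages, had 4.07 and 3.79. No fold is given for these 3 genes. A low intensity on this array may also come from the probe set itself, which was not tested.

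Among the colony-stimulating factor genes, the ligand was above the floor in every probe set, Csf1r on the resting array alone and Csf2ra on neither. Csf1, the growth factor that keeps microglia alive, had 4 probe sets above the floor, at 1331, 203.0, 112.2 and 83.1 at rest and at 1404, 201.6, 120.0 and 78.8 after OGD. They did not share a direction, with log2 differences of 0.08, -0.01, 0.10 and -0.08, and their mean of 0.022 was smaller than their SD of 0.080 (4 probe sets). Csf1r, the receptor for CSF1, was above the floor at rest alone, at 21.9 against 19.3, and was thus at least 1.11-fold lower on the OGD array. Csf2ra, a receptor chain for GM-CSF, was under the floor at 8.81 and 9.97. In a list of 20 further genes of this signalling, 13 of the 17 with a probe set were measured, with 9 higher, 4 lower and a median of 0.058. The 9 are 69.2%, against 42.8% of all measured genes higher. Jak2, a kinase bound to cytokine receptors, was 1.39-fold lower (38.0 against 27.3), and Cbl, a ubiquitin ligase that acts on activated receptors, was 1.18-fold higher (86.0 against 101.9).

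The TGF-beta genes that could be measured were both slightly higher on the OGD array. Tgfb1, the ligand, had 135.7 at rest and 147.6 after OGD, a log2 difference of 0.12. Tgfbr1, the kinase chain of the receptor, had 51.1 and 56.8, a difference of 0.15, and its second probe set was under the floor, at 14.7 and 16.9. The wider pathway did not share this direction: of 15 measured genes among 20 listed, 6 were higher, 6 lower and 3 equal, with a median of 0. The share higher was 40%, against 42.8% of all measured genes. Skil, a repressor of SMAD proteins, was 1.203-fold higher, at 60.6 against 72.9, and Smurf2, a ubiquitin ligase of the pathway, 1.13-fold lower, at 53.4 against 47.2.

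Of the microglial markers, Aif1, the calcium-binding protein IBA1 used to stain microglia, had the widest spread of the 3 members that had several probe sets measured on both arrays. One had 48.3 at rest and 47.0 after OGD, a log2 difference of -0.04, and the other 44.6 and 35.0, a difference of -0.35. The second is of a kind that the array's naming marks as shared between transcripts. The SD between the pair was 0.22, against 0.147 pooled over the 1902 genes with several probe sets above the floor. Tmem119, a membrane protein of resident microglia, was close to the floor with 23.3 and 23.1, a difference of -0.01. Gpr34, a lysophospholipid receptor, and Olfml3, a secreted glycoprotein, were under the floor, at 4.08 and 3.66 and at 5.79 and 6.21.

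Because some of these markers were dim, the labelled cell type was checked against further genes. Of 14 other microglial and macrophage genes with a probe set, 13 were above the floor, which is 92.9%, against 67.4% of all genes. The marker left under it was Adgre1, the antigen F4/80. Of the 4 microglial markers among the members, 2 were above the floor (50%), a share under that of all genes. The receptor gene Trem2 had 604.2 at rest and 582.6 after OGD, the lysosomal marker Cd68 370.7 and 359.7, and the integrin gene Itgam 60.9 and 56.5; these 3 were chosen after their values were seen. Within this list 11 of 13 measured genes were lower on the OGD array, with a median of -0.096, and the count was 11 also with quantile or loess scaling. Over all genes 51.3% were lower. P2ry12, a purinergic receptor of resident microglia, was 1.196-fold lower (36.6 against 30.6). C1qc, a chain of complement C1q near the floor at rest, was 1.23-fold higher (26.3 against 32.3). The chains C1qa (36.7 against 32.2) and C1qb (42.5 against 39.6), named after their values were seen, were lower. In bulk RNA, fewer cells of a type and less RNA per cell cannot be told apart.

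Markers of other cells that such a culture could hold were checked the same way. Above the floor were 5 of 9 astrocyte genes, 4 of 9 of the oligodendrocyte lineage and 2 of 10 of neurons. For fibroblasts and meningeal cells it was 5 of 10, for endothelial and mural cells 4 of 9, and for lymphocytes and granulocytes 1 of 7. The astrocyte genes Gfap and Slc1a2 were each 1.35-fold higher on the OGD array. Both were near the floor at rest, at 27.4 against 36.9 and 23.8 against 32.0. Another probe set of Slc1a2 was under the floor on both arrays, at 6.21 and 5.23. The median over the 5 measured astrocyte genes was 0.13, with 3 higher and 2 lower. The lower ones were Glul, glutamine synthetase, at 152.3 against 131.7, and Aldoc, aldolase C, at 120.9 against 118.6, both named after their values were seen. Other probe sets of Glul above the floor were not lower, at 59.4 against 63.0 and at 44.5 on both arrays. The summed intensity of all 9 astrocyte genes, the 4 under the floor included, was 390.9 and 389.9. Glul and Aldoc, the brightest of them, weigh most in this sum. The summed intensity of the fibroblast list was 297.6 and 304.6, and 3 of 5 measured genes were higher at a median of 0.21. Thy1 was 1.28-fold lower. Igfbp5 was 1.21-fold higher in its brightest probe set, while another was equal at 28.6 on both arrays. A further one of Igfbp5, above the floor after OGD alone, had 18.3 and 23.1. The sum was 322.6 and 339.7 for the endothelial list, where Vwf was 1.22-fold and Des 1.17-fold higher and 2 of 4 measured genes were lower, at a median of 0.10. For the oligodendrocyte list it was 195.6 and 199.6, with Mbp 1.17-fold higher, Cspg4 1.06-fold lower, and 2 of 4 measured genes higher at a median of -0.0052. Neuron markers summed to 248.2 and 251.6, with Syn1 1.18-fold higher and Elavl3 1.08-fold lower. Lymphocyte and granulocyte markers summed to 90.7 and 95.1, with Cd3e 1.08-fold higher. The sums of all these lists include the genes under the floor, which were 8 of 10 for neurons and 6 of 7 for lymphocytes and granulocytes. The part of other cells in the members' values was not tested.

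**Figure D2:**
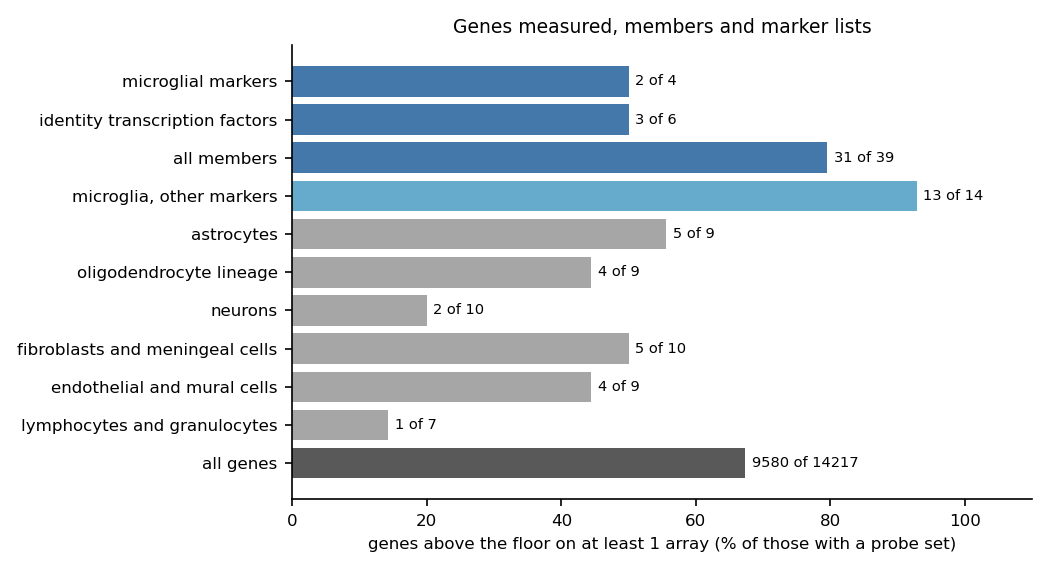
Percentage of genes above the floor on at least 1 array, of those with a probe set, for the members (dark blue), other microglial markers (light blue), markers of other cell types (grey) and all genes (dark grey). The other microglial markers reach 92.9% and the lymphocyte and granulocyte markers 14.3%. The members' microglial markers and identity transcription factors reach 50% each, the astrocyte markers 55.6% and all genes 67.4%.

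Leukocyte surface genes held the member with the largest difference of the 31 genes. Cd37, a tetraspanin of haematopoietic cells, had 80.7 at rest and 97.8 after OGD and was 1.21-fold higher on the OGD array in its single probe set. Cd4, a co-receptor that rat macrophages also carry, had 67.2 and 72.9, a log2 difference of 0.12. Cd33, a sialic acid-binding inhibitory receptor, had 68.6 and 67.4, a difference of -0.02. Ptprc, the pan-leukocyte phosphatase CD45, was lower at 42.8 against 38.6, a difference of -0.15, and its other probe set was under the floor at 14.7 and 13.2. Cd53, another tetraspanin of leukocytes, was under the floor at 7.05 and 8.44.

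Of the signalling enzymes behind immunoreceptors, Syk, the kinase that binds phosphorylated ITAM motifs, had 113.3 at rest and 128.5 after OGD and was 1.13-fold higher. Ptpn6, the phosphatase SHP-1 that opposes such kinases, was 1.11-fold higher, at 57.3 and 63.6. Lyn, a Src family kinase, had 48.8 and 46.9 in the probe set above the floor, a log2 difference of -0.06, and its other one, under the floor on both arrays, had 12.3 and 17.7. Among 14 measured genes of 20 others in these pathways 8 were higher and 6 lower, with a median of 0.082. The 8 are 57.1%, against 42.8% of all measured genes higher. Lilrb4, an inhibitory receptor, and Dok1, an adaptor, had the largest differences of that list, at 1.197-fold and 1.191-fold higher from intensities of 25.5 and 23.4 at rest, near the floor.

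The 4 oxidase subunits were each lower on the OGD array, by less than 1.2-fold, where 51.3% of all measured genes were lower. Cybb, the catalytic subunit, had 56.7 at rest and 49.7 after OGD, a log2 difference of -0.19. Cyba, its membrane partner, had 1555 and 1491, a difference of -0.06. Of the cytosolic subunits, Ncf4 had 49.5 and 45.3, a difference of -0.13, and Ncf1 had 41.7 and 40.7, a difference of -0.04. With quantile scaling Cyba was equal on both arrays and the other 3 subunits remained lower. The second probe sets of Cybb and Cyba were under the floor, at 5.53 and 5.67 and at 16.2 and 13.6. All 4 differences lay within the middle 95% of probe sets of like intensity. Of 20 further genes that regulate the oxidase or handle its products, 12 of the 15 with a probe set were measured and 10 of these were lower, with a median of -0.046, against 51.3% of all measured genes lower. The count lower was 7 (58.3%) with quantile and 8 (66.7%) with loess scaling, where 51.0% and 51.2% of all genes were lower, so under quantile scaling the share lay near that of all genes. Cybc1, a chaperone of the membrane pair, was 1.12-fold lower (52.2 and 46.7), and Sod2, the mitochondrial superoxide dismutase, 1.11-fold lower (466.7 and 419.2). Another probe set of Cybc1 above the floor was equal on both arrays, at 34.6.

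The oxidase subunits were picked for a display of sequence after their values were seen. With the values as deposited, no other role with 3 or more measured genes lay all on 1 side. Roles with 2 measured genes did so too, the TGF-beta genes higher and the microglial markers lower. Shared regulation of the subunits was not tested. The bases before their start sites are shown. They are the 250 bases upstream of the annotated start in RefSeq (assembly GRCr8), read 5′ to 3′ on the gene's strand. Cybb lies on the minus strand at chrX:16065066-16065315, Cyba on the minus strand at chr19:67404215-67404464 and Ncf1 on the plus strand at chr12:28121635-28121884. Ncf4 is named only. Capitals mark GAGGAA, a core that PU.1 can bind, or its complement TTCCTC on the strand shown.
Cybb: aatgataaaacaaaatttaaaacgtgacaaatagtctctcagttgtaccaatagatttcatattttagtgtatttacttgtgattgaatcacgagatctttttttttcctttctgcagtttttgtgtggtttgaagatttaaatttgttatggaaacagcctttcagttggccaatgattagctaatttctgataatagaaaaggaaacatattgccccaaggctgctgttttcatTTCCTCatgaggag
Cyba: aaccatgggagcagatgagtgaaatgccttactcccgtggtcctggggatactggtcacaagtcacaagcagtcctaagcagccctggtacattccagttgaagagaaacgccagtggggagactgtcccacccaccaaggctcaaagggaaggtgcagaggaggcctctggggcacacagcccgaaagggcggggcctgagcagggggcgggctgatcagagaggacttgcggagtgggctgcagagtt
Ncf1: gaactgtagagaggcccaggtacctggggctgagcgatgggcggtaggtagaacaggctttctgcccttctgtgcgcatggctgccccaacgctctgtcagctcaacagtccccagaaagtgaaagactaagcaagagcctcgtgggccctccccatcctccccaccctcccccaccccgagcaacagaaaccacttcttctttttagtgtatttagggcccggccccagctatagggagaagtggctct

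The motif was present 1 time before Cybb and did not occur in the windows of Cyba or Ncf1. Searched on both strands, it occurred in 13 of 28 windows of member genes (27 genes, of which 1 has 2 windows), and in 23.3% of all 33469 windows of this length. A match is a description of these letters, and the arrays measured no binding.

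Genes of the lysosome and cytoskeleton of phagocytes differed little. Laptm5, a lysosomal membrane protein of leukocytes, had 239.0 at rest and 237.4 after OGD, and the sign of its difference of -0.009 turned with quantile or loess scaling, to 0.016 and 0.020. Lcp1, the actin-bundling protein L-plastin, had 53.0 and 51.5. Lyz2, lysozyme, had 163.3 and 168.0, a log2 difference of 0.04. Cst3, the protease inhibitor cystatin C, had 789.0 and 740.5, a difference of -0.09. The second probe set of Laptm5 was under the floor, at 18.2 and 16.4.

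Of the activation-state genes, 5 of 7 measured were higher on the OGD array, against 42.8% of all measured genes. The median of the 7 was 0.086 and none passed 1.2-fold. All 7 differences lay within the middle 95% of probe sets of like intensity. Clec7a, the beta-glucan receptor Dectin-1, had 49.5 at rest and 57.6 after OGD and was 1.16-fold higher. Clec10a, a galactose-type lectin of alternatively activated macrophages, was 1.13-fold higher but near the floor, at 20.02 and 22.6. Gpnmb, a glycoprotein of phagocytes under lysosomal load, had 39.3 and 42.0, a log2 difference of 0.10.

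Lgals3, galectin-3, a lectin of activated microglia, had 2981 at rest and 3165 after OGD, a log2 difference of 0.09. Spp1, the secreted phosphoprotein osteopontin, had 125.6 and 131.5, a difference of 0.07. Lpl, the lipoprotein lipase, had 85.0 and 83.3, a difference of -0.03, and Igf1, a growth factor released by microglia, 195.5 and 187.2, a difference of -0.06. The other 2 probe sets of Igf1 were under the floor on both arrays, at 11.5 and 15.3 and at 3.62 and 3.83. Arg1, arginase 1, was under the floor at 8.56 and 9.63, so it is given no fold.

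Of 18 measured genes in a list of 26 others for alternative activation and phagocyte states, 11 were higher, 6 lower and 1 equal. The 11 are 61.1%, against 42.8% of all measured genes higher. The median of the 18 was 0.017. The lysosomal proteases Ctsd (1011 and 1203) and Ctsl (357.7 and 421.7) were 1.19-fold and 1.18-fold higher. Further myeloid transcription factors had a median of 0.0027 over 16 measured genes, with 9 higher (56.25%), 6 lower and 1 equal. Cebpa, a factor of myeloid differentiation, was 1.24-fold lower in its brightest probe set (48.1 and 38.7), and the interferon factor Irf7 1.18-fold lower (317.5 and 268.9). Another probe set of Cebpa was just above the floor at rest alone, at 19.8 and 16.4, and its remaining ones were under the floor on both arrays.

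**Figure D3:**
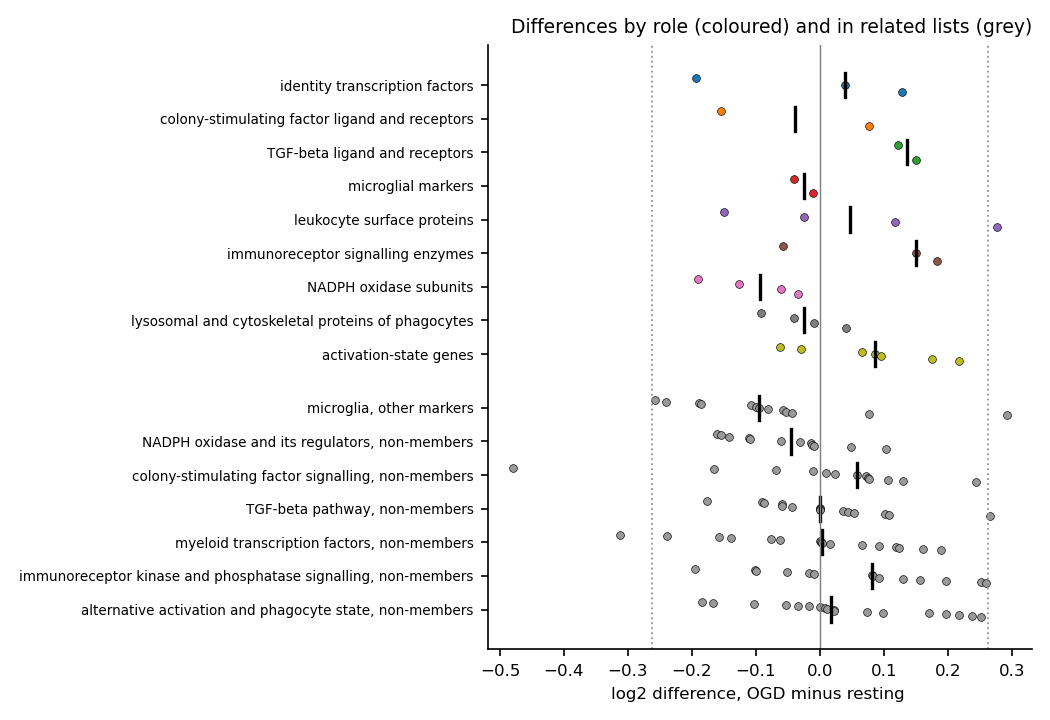
Log2 difference, OGD minus resting, of each measured gene by its brightest probe set (points), with the median of each group as a vertical bar and 1.2-fold as dotted lines, for the members by role (coloured) and for related lists of other genes (grey). The oxidase subunits lie at -0.19 to -0.04 and the activation-state genes at -0.06 to 0.22.

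The members' differences were set against the spread of all probe sets. For this the 11594 probe sets that exceeded the floor on both arrays were divided into 5 classes of mean intensity, and the middle 95% of differences was read in each. It ran from -0.34 to 0.34 in the dimmest and from -0.26 to 0.22 in the brightest class. Outside it lay 2 of the 37 member probe sets, against 5% of all by construction. One was the shared-type probe set of Aif1, at -0.35 with the class limit at -0.34, and the other Cd37, at 0.28 with the limit at 0.26. The SD of the differences was 0.130 over the 37 member probe sets and 0.152 over all.

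**Figure D4:**
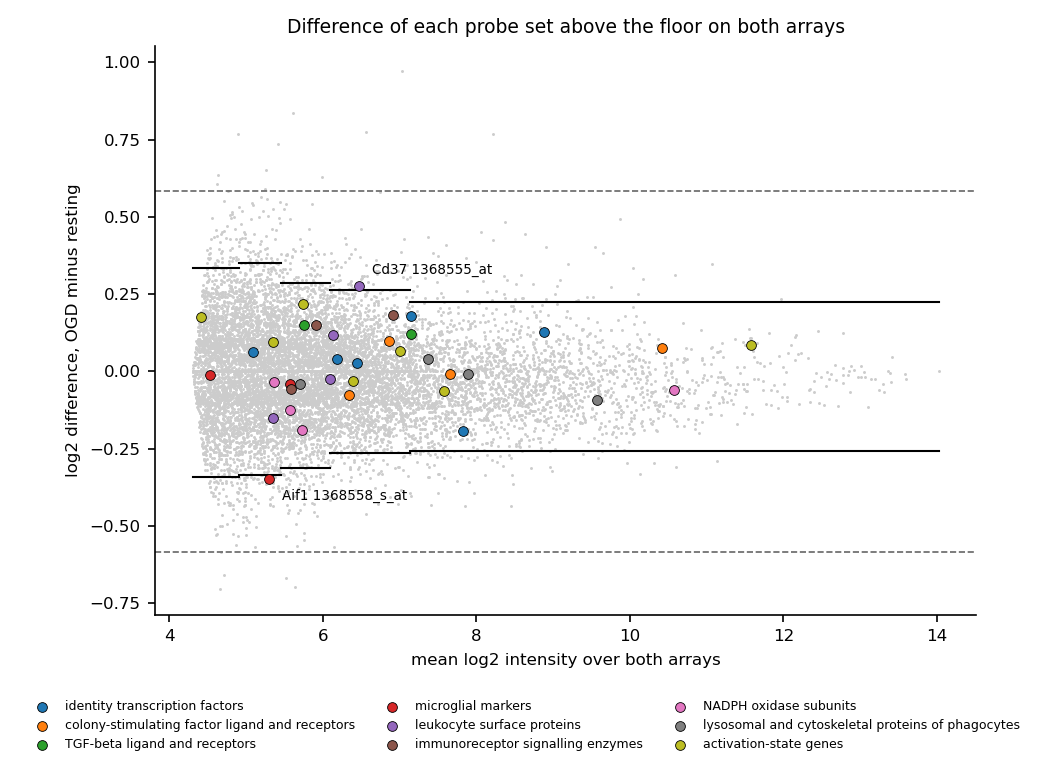
Log2 difference against mean log2 intensity for the 11594 probe sets exceeding the floor on both arrays (grey) and the 37 of the members (coloured by role), with the middle 95% of each intensity class (solid lines) and 1.5-fold (dashed lines). Members stay inside the 1.5-fold lines, and the named probe sets of Cd37 and Aif1 lie just outside the solid ones.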

How the data were processed

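The deposited values are intensities on a linear scale, 1 per probe set and array, for 1 resting and 1 OGD array (per the labels, biotin-labelled RNA). How the authors corrected, summarised and normalized them is not stated in any source used here. Set aside were 57 controls of the 31099 probe sets, and 20826 of the others named 1 gene, 436 several and 9780 none. Symbols were checked through Entrez IDs against RefSeq GRCr8, where 20758 of the 20826 had their ID. A gene was represented by its probe set with the highest mean intensity. Log2 differences were computed with numpy 2.4.6 and pandas 2.3.3, and the loess trend, with a span of 0.3, with statsmodels 0.14.6. Counts used the 1.5-fold of the design text and a lower 1.2-fold. The calculation was tested on simulated data. Precision is limited by the number of arrays, and the spread between probe sets of a gene covers neither labelling nor cultures. The members, the 13 other gene lists, the folds and the alternatives were chosen with earlier results of these data known. The rule for named genes took every member and the 2 measured genes with the largest absolute difference of each other list.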

Additional observations from a re-analysis of the deposited data

How the results depend on the processing

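The count of member probe sets past 1.5-fold was 0 under all 9 alternatives of floor, filter, scaling, pseudocount and probe sets, and also at a 2-fold threshold. The count past 1.2-fold was 4 with a floor at the 30th percentile and 4 without a floor, where probe sets of Lyn and Igf1 that are under the median floor entered. It was 1 with a floor at the 70th percentile, which left 34 probe sets, and 1 without probe sets marked as shared or cross-matching, which removed the lower one of Aif1. The median of the member genes was 0.020 after loess scaling and lay between -0.0093 and 0.016 under the other alternatives. The mean over both probe sets was -0.19 for Aif1 and -0.0065 for Runx1, whose sign turned; apart from Runx1 and, with quantile or loess scaling, Laptm5, no member gene above the floor changed sign under an alternative. No paired analysis was possible because each group has 1 array, and for the same reason no replicate could be left out. Probe sets under the floor limit what can be seen for 8 member genes.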

Other observations

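The 2 largest differences among the member probe sets were in probe sets under the floor on both arrays, a probe set of Lyn at 12.3 and 17.7 (1.45-fold) and one of Igf1 at 11.5 and 15.3 (1.34-fold). In both genes the probe set above the floor had a small difference of the other sign, -0.06 for Lyn and -0.06 for Igf1. The SD of the log2 differences was 0.197 over all 8595 probe sets under the floor on both arrays and 0.152 over those above it on both.

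Many probe sets shared exactly 1 size of log2 difference, compared at 7 decimals. Among the 31042 probe sets other than controls there were 10897 distinct sizes, and 73.5% had a size that at least 1 other probe set also had. A size of 0.155119 was found in 194 probe sets, among them those of the unrelated members Gpr34 and Ptprc. The probe sets of Cd53 and Cyba under the floor had 0.259328 with opposite signs, a size shared by 78 probe sets. Among members, 15 of the 37 probe sets that exceeded the floor on both arrays and 16 of the other 19 shared their size with another probe set. The 15 are 40.5%, against 60.7% of all probe sets other than controls that exceeded the floor on both arrays. They include differences given above, of Ptprc at a size of 0.150233 (165 probe sets) and Clec10a at 0.175454 (168 probe sets). Of the oxidase subunits, Cybb (6 probe sets), Ncf4 (2) and Ncf1 (18) also had a shared size, and Cyba did not. Probe sets of Ncf1 (41.665231 and 40.665231), Mef2a (449.165231 and 491.165231) and Csf1 (1331.165231 and 1404.415231) differed between the arrays by exact multiples of 0.25 on the linear scale. The equal value of Irf5 on both arrays is 1 of 2701 such pairs. The cause of these shared sizes was not tested.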
